A study of Mus musculus with 9 samples.

Results

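NF-kB subunits and their feedback regulators were followed as 10 genes, listed by name, among the 23420 genes counted in sorted mouse brain endothelial cells. They are the Rel family subunits Nfkb1, Nfkb2, Rela and Relb, the inhibitors Nfkbia and Nfkbie, the ubiquitin ligases Birc2, Birc3 and Traf2, and the kinase Ikbkb. All 10 passed the filter on low counts, as did 13317 genes in all. The 9 libraries came from 3 genotypes with 3 replicates each: APP/PS1xRIPK1KD, APP/PS1 and WT. Every mouse was labelled as a 6-month-old male of the C57BL/6 strain. APP/PS1 mice carry transgenes for human amyloid precursor protein and presenilin 1 with familial Alzheimer's disease mutations, and the APP/PS1xRIPK1KD mice carry these together with the RIPK1KD allele. The promoters of the transgenes and what KD stands for are not given in the sources used here. About 20000 CD31+CD45- cells per library were collected by flow cytometry from brain homogenate, CD31 (Pecam1) being an endothelial surface protein and CD45 (Ptprc) the leukocyte surface protein. RNA was reverse transcribed from the poly(A) tail by the Smart-seq2 protocol and sequenced without strand information.

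NF-kB is a family of dimeric transcription factors held in the cytoplasm by IkB proteins. In the canonical pathway, tumour necrosis factor or interleukin 1 receptors recruit TRAF and cIAP ubiquitin ligases and RIPK1, the IkB kinase complex marks IkB-alpha for degradation, and RelA-p50 dimers enter the nucleus and switch on genes that include their own inhibitors. In the non-canonical pathway the cIAP-TRAF complex keeps the kinase NIK low until a receptor releases it, after which p100 is cut to p52 and pairs with RelB. In endothelium the canonical pathway is known for inducing adhesion molecules and chemokines. Transcript levels of these components do not measure phosphorylation, degradation or nuclear entry.

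Total expected counts per library ran from 16263792 in APP/PS1 replicate 1 to 52413200 in APP/PS1 replicate 3, with a median of 46603518. Levels are given as CPM, counts per 1000000 of the TMM-scaled library size. Xist, the X-inactivation transcript of female cells, was at 264 to 534 CPM in replicates 1 and 2 of every genotype, where the summed Y-linked transcripts were at most 0.434 CPM. Replicate 3 of every genotype had 150 to 185 CPM of Y-linked transcripts and at most 4.77 CPM of Xist. Thus 6 of the 9 libraries went against their label of male, in the same way in each genotype. One of the other settings therefore used replicates 1 and 2 alone, and its values are given beside the member results whose unadjusted p was under 0.05 in it. The ribosomal RNA gene Rn45s took 15.8 to 33.8% of counts. The 8 endothelial markers summed to 16377 to 19275 CPM in all libraries, and the leukocyte markers to at most 2.32 CPM. The erythroid markers summed to 2346 to 4122 CPM in APP/PS1xRIPK1KD, 1959 to 9516 CPM in APP/PS1 and 2122 to 2771 CPM in WT. Over all libraries the neuron markers summed to 105 to 248 CPM, the microglia markers to 52.4 to 93.9 CPM and the oligodendrocyte markers to 26.1 to 82.5 CPM. The mural markers summed to 58.0 to 245 CPM in APP/PS1xRIPK1KD, 165 to 215 CPM in APP/PS1 and 8.73 to 51.7 CPM in WT. The choroid plexus markers summed to 172 to 306, 53.1 to 144 and 41.5 to 68.3 CPM in these same genotypes. Most of this sum was Ttr, at 162 to 296, 49.5 to 134 and 38.4 to 66.6 CPM. Since these are bulk libraries, fewer cells of a type and less RNA per cell cannot be told apart.

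Several of these genes are known NF-kB targets themselves, so their promoters are shown for the letters of a kB site, the DNA motif bound by NF-kB. The windows are those of RefSeq on GRCm38.p6, from 250 bases before to 50 bases after a gene's start. The table held 10 windows for 7 of the genes. The kB consensus was searched on both strands and was found in 5 of the 10 windows, which belong to 3 of the 7 genes, while 4.51% of 32851 promoter windows held it. These are 1 window of Nfkbia, 1 of Nfkbie and all 3 of Nfkb2, which are not independent, since 2 of them overlap. The 4 windows below are printed 5′ to 3′ on the gene's strand, with matches to the kB consensus in capitals. They are Nfkbia at chr12:55492598-55492897 on the minus strand, Nfkbie at chr17:45555450-45555749 on the plus strand, and 2 of the 3 starts of Nfkb2 at chr19:46304487-46304786 and chr19:46305445-46305744 on the plus strand.
Nfkbia: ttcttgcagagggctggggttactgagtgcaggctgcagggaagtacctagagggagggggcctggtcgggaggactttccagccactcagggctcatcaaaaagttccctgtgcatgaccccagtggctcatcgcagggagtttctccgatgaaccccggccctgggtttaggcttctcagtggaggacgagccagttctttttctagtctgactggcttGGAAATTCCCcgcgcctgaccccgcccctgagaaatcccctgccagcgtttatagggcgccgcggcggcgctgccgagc
Nfkbie: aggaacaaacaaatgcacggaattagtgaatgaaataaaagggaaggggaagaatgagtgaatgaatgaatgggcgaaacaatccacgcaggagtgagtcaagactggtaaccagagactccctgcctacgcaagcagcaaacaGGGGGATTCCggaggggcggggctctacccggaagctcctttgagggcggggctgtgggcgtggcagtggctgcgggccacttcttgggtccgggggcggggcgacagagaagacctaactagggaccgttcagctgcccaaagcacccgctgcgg
Nfkb2, first start: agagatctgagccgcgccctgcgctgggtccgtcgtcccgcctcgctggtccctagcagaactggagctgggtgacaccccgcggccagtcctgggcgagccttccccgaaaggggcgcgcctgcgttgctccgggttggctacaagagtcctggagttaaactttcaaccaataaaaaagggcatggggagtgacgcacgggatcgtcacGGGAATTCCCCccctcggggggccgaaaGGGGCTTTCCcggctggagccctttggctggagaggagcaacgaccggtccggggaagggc
Nfkb2, second start: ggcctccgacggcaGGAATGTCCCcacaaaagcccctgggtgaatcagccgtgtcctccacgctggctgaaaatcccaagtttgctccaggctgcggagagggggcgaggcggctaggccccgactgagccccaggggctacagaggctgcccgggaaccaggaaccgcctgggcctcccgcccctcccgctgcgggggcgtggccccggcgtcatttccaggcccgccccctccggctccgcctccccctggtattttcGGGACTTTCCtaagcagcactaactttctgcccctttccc
The Nfkbia match began 29 bases before the start and the Nfkbie match 106 bases before it. In Nfkb2 the first window held 3 matches, 39, 38 and 11 bases before the start, the first 2 of which overlap in one run of capitals. A match is a description of these letters and not a measured binding site, and no binding was measured here.

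None of the 10 genes passed an FDR of 0.05 in any of the 3 comparisons by edgeR's quasi-likelihood test, with Benjamini-Hochberg adjustment over all 13317 genes tested. In APP/PS1xRIPK1KD against WT, 0.0375% of all genes passed, against 0.00751% in APP/PS1xRIPK1KD against APP/PS1 and 0.0225% in APP/PS1 against WT. At an unadjusted p under 0.05 the members numbered 1, 0 and 0 in these comparisons, where 6.18, 4.78 and 6.14% of all genes lay. The 95% interval of the fold change stayed within 2-fold in either direction for 9 of the 10 genes in every comparison, the exception being Nfkbie. The median log2 fold change of the 10 genes was -0.01 in APP/PS1xRIPK1KD against WT, -0.02 in APP/PS1xRIPK1KD against APP/PS1 and -0.10 in APP/PS1 against WT. Over all genes tested the medians were 0.0031, -0.0034 and 0.0019. The 3 comparisons share libraries pairwise, so their values are not independent. DESeq2 and limma-voom, fitted to the same counts, also put none of the 10 genes past 0.05.

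**Figure D1:**
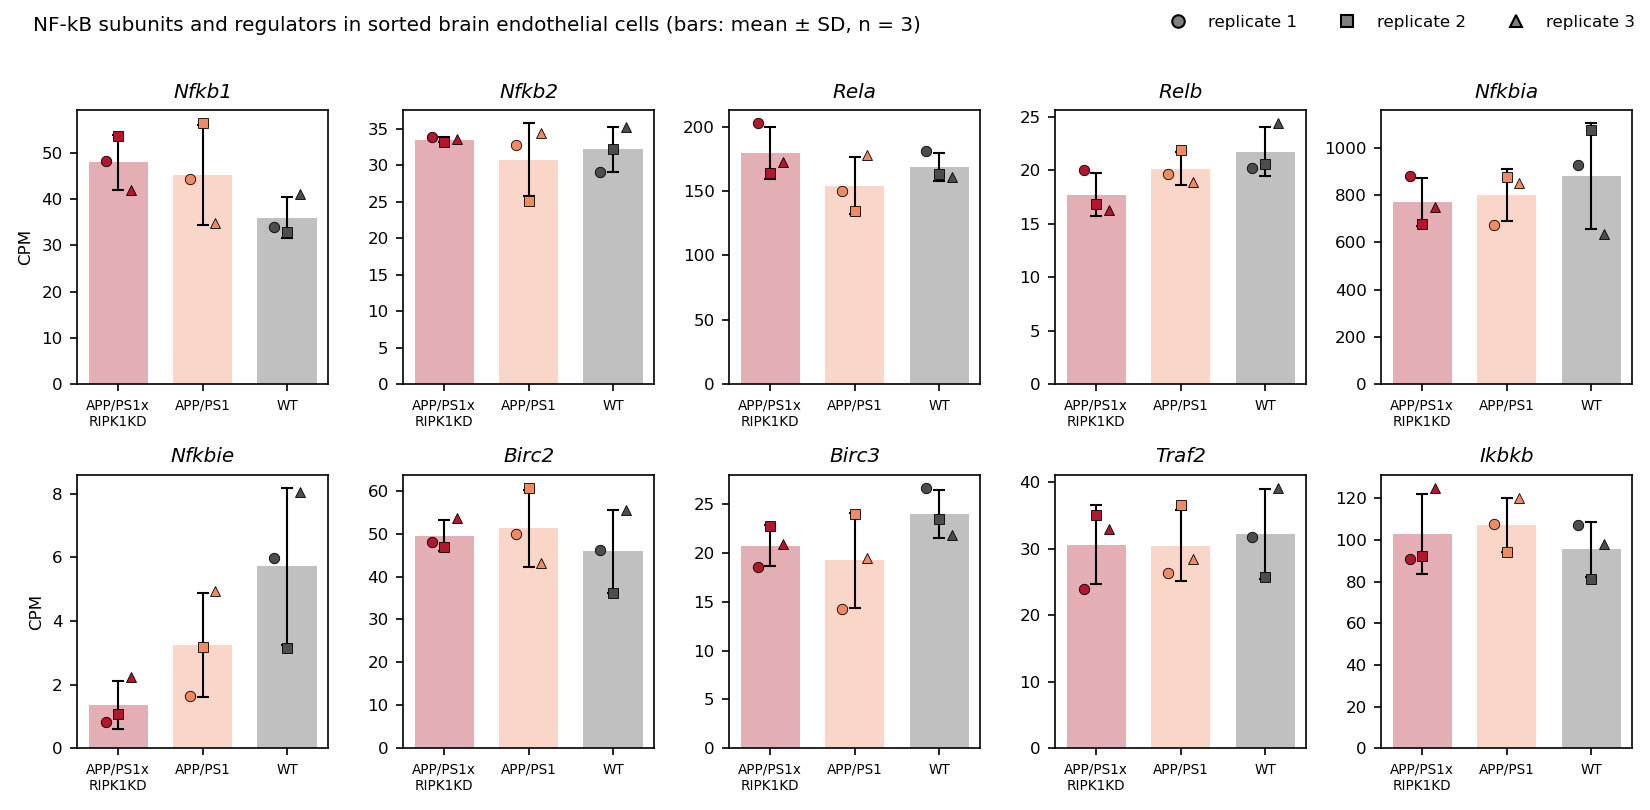
CPM of each of the 10 genes by genotype, with bars for the mean, error bars for the SD of 3 libraries and markers for each replicate. The libraries of the 3 genotypes overlap in most panels, and Nfkbie is the gene whose APP/PS1xRIPK1KD libraries, at 0.816 to 2.23 CPM, all lie below the WT libraries, at 3.14 to 8.05 CPM, by the widest margin.

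Nfkbie encodes IkB-epsilon, a slower-acting inhibitor than IkB-alpha that holds NF-kB dimers in the cytoplasm (chromosome 17, 45555703 to 45563169, plus strand, GRCm38). It had 0.816, 1.07 and 2.23 CPM in APP/PS1xRIPK1KD replicates 1 to 3, against 1.64, 3.17 and 4.93 CPM in APP/PS1 and 5.99, 3.14 and 8.05 CPM in WT. These rest on 40, 47 and 124 counts in APP/PS1xRIPK1KD, 26, 170 and 248 counts in APP/PS1 and 203, 119 and 376 counts in WT. All 3 APP/PS1xRIPK1KD libraries lay below all 3 WT libraries, while APP/PS1 libraries overlapped with both. In each genotype the highest library was replicate 3, the one with Y-linked transcripts. Nfkbie averaged 1.37 ± 0.756 CPM in APP/PS1xRIPK1KD and 5.72 ± 2.47 CPM in WT (SD, n = 3 each), a log2 fold change of -2.05 ± 0.623 (SE). The fold was 0.241, with a 95% interval of 0.0943 to 0.615. Its unadjusted edgeR p was 0.00614, rank 133 of 13317, and its FDR of 0.596 did not pass. For APP/PS1xRIPK1KD against APP/PS1 the log2 fold change was -1.24 (FDR 1.00, unadjusted p 0.0636, edgeR) and for APP/PS1 against WT it was -0.81 (FDR 0.905, unadjusted p 0.202, edgeR). It was the member with the lowest level and the widest intervals.

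Across 18 other settings the log2 fold change of Nfkbie in APP/PS1xRIPK1KD against WT ran from -2.59 to -1.73. Its unadjusted p was under 0.05 in all 18 and its FDR was between 0.118, with DESeq2, and 0.939. With replicates 1 and 2 alone it was -2.27, with an edgeR FDR of 0.679. In replicate 3 alone, 1 library a genotype and so without a test, the order of the levels was the same as that of the means. Other measures also differed between these genotypes. The choroid plexus sum, most of it Ttr, was higher in every APP/PS1xRIPK1KD library than in every WT library. Of its other markers, Kcnj13 and Kl were also higher in every such library, while Folr1 and Clic6 overlapped. The mural sum was 58.0 to 245 CPM in APP/PS1xRIPK1KD and 8.73 to 51.7 CPM in WT. The fibroblast sum was 2.06 to 7.26 CPM and 0.132 to 1.24 CPM in the same order. Rn45s took 20.2 to 26.4% of counts in APP/PS1xRIPK1KD and 29.6 to 33.8% in WT. The part of these measures in the Nfkbie values was not tested.

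**Figure D2:**
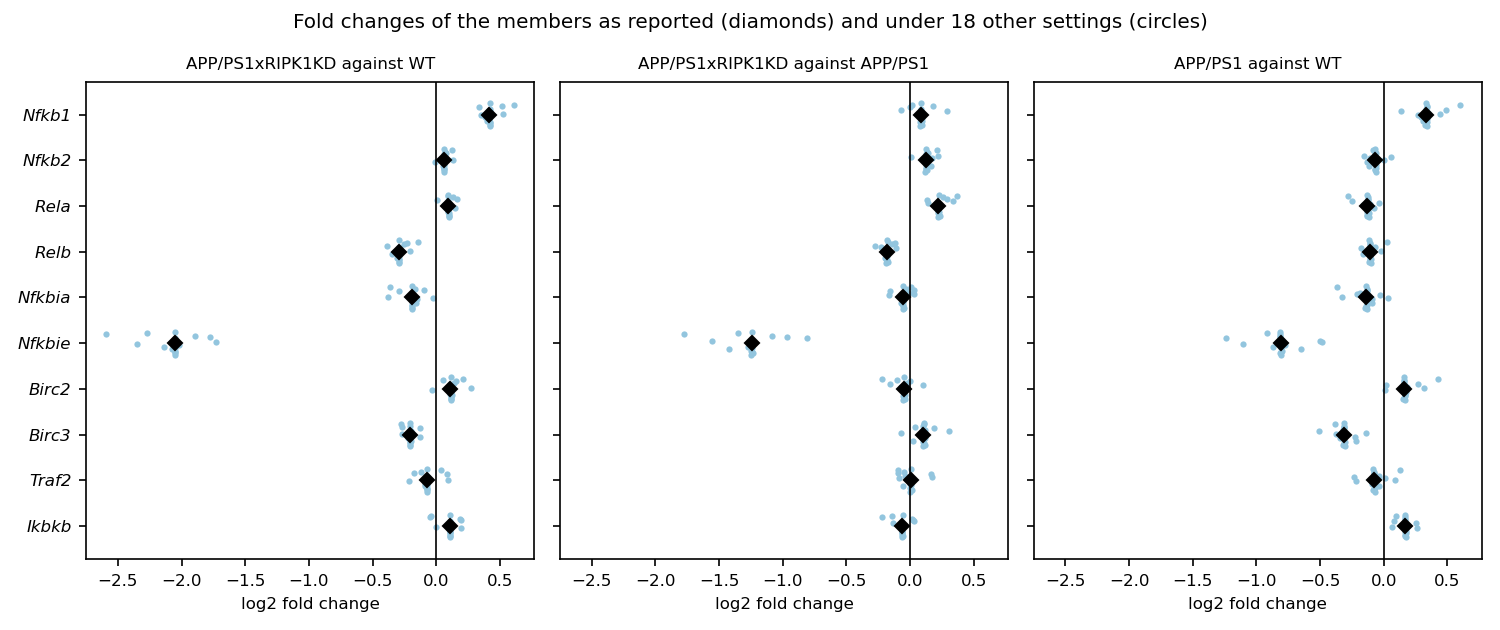
Log2 fold change of each gene in the 3 comparisons, with the reported value as a diamond and 18 other settings (scaling, filter, test, libraries left out) as circles. Nfkbie stays between -2.59 and -1.73 in APP/PS1xRIPK1KD against WT, and the genes whose circles fall on both sides of 0 have reported values of at most 0.14 in size.

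Nfkbia encodes IkB-alpha, the fast feedback inhibitor of canonical NF-kB (chromosome 12, 55489410 to 55492647, minus strand). It had 883, 680 and 750 CPM in APP/PS1xRIPK1KD replicates 1 to 3, against 675, 878 and 851 CPM in APP/PS1 and 930, 1077 and 638 CPM in WT. The 3 genotypes overlapped, and WT held both the highest and the lowest library. The fold in APP/PS1xRIPK1KD against WT was 0.875 with a 95% interval of 0.663 to 1.15, and in APP/PS1 against WT 0.909 with an interval of 0.689 to 1.20 (edgeR FDR 0.979 and 0.960). Leaving out WT replicate 2, its highest library, turned the log2 fold change of Nfkbia in APP/PS1 against WT to 0.032, where all 9 libraries gave -0.14. Without the lowest library, WT replicate 3, the unadjusted p for APP/PS1xRIPK1KD against WT was 0.0339, with an edgeR FDR of 0.753.

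Rela encodes p65, the main activating subunit of canonical NF-kB (chromosome 19, 5637483 to 5648130, plus strand). It had 203, 165 and 172 CPM in APP/PS1xRIPK1KD, against 150, 134 and 178 CPM in APP/PS1 and 181, 163 and 161 CPM in WT. APP/PS1 held the 2 lowest libraries, and its highest overlapped with the other genotypes. Rela had the narrowest intervals of the 10 genes. The fold was 1.07 in APP/PS1xRIPK1KD against WT (0.865 to 1.32), 1.17 in APP/PS1xRIPK1KD against APP/PS1 (0.945 to 1.44) and 0.915 in APP/PS1 against WT (0.741 to 1.13). With replicates 1 and 2 alone, the log2 fold change of Rela in APP/PS1xRIPK1KD against APP/PS1 was 0.37 (unadjusted p 0.0423, FDR 0.540, edgeR).

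Nfkb1 encodes p105, the precursor of the p50 subunit (chromosome 3, 135584655 to 135691547, minus strand). It had 48.3, 53.7 and 41.9 CPM in APP/PS1xRIPK1KD, against 44.4, 56.4 and 34.9 CPM in APP/PS1 and 34.0, 32.8 and 41.0 CPM in WT. All 3 APP/PS1xRIPK1KD libraries lay above all 3 WT libraries, the nearest pair being at 41.9 and 41.0 CPM, and APP/PS1 overlapped with both. The log2 fold change against WT was 0.42 ± 0.195 (SE) in APP/PS1xRIPK1KD (unadjusted p 0.0530, FDR 0.823, edgeR) and 0.33 ± 0.195 in APP/PS1 (unadjusted p 0.113, FDR 0.837, edgeR). The first was positive in all 18 other settings, from 0.34 to 0.61, with an unadjusted p under 0.05 in 8 of them and an FDR never under 0.590. The second was also positive in all 18, from 0.14 to 0.60. With replicates 1 and 2 alone, the first was 0.61 (unadjusted p 0.0135, FDR 0.590, edgeR) and the second 0.60 (unadjusted p 0.0154, FDR 0.344, edgeR). The authors' deposited table gave a log2 fold change of 0.17 for Nfkb1 in APP/PS1 against WT, with an FDR of 0.981.

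Relb encodes the partner of p52 in the non-canonical pathway (chromosome 7, 19606217 to 19629438, minus strand). It had 20.01, 16.8 and 16.3 CPM in APP/PS1xRIPK1KD, against 19.6, 21.8 and 18.9 CPM in APP/PS1 and 20.2, 20.6 and 24.4 CPM in WT. All APP/PS1xRIPK1KD libraries lay below all WT libraries, the nearest pair being at 20.01 and 20.2 CPM. The log2 fold change was -0.30 ± 0.198 (SE) in that comparison (unadjusted p 0.161, FDR 0.910, edgeR). The ratio of Relb to Rela CPM, computed after the values had been seen and not tested, was 0.0987, 0.102 and 0.0943 in APP/PS1xRIPK1KD, against 0.131, 0.163 and 0.106 in APP/PS1 and 0.111, 0.126 and 0.151 in WT. It was lower in all 3 APP/PS1xRIPK1KD libraries than in the 6 others. How many ratios of other gene pairs separate these libraries in the same way was not computed, so no conclusion is drawn from it.

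Among the 10 genes, 1 lay above and 2 lay below without overlap in APP/PS1xRIPK1KD against WT, namely Nfkb1 above and Nfkbie and Relb below. Over all genes tested, 6.04% lay above and 6% below without overlap in that comparison. None of the 10 was free of overlap in APP/PS1xRIPK1KD against APP/PS1, where 5.32% of all genes lay above and 4.64% below, or in APP/PS1 against WT, where 5.47% lay above and 5.44% below.

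Nfkb2 encodes p100, the precursor of p52 and itself an inhibitor of RelB (chromosome 19, 46304320 to 46312385, plus strand). It had 33.9, 33.2 and 33.6 CPM in APP/PS1xRIPK1KD, against 32.8, 25.1 and 34.5 CPM in APP/PS1 and 29.1, 32.3 and 35.3 CPM in WT. The APP/PS1xRIPK1KD libraries lay close together inside the range of WT, and APP/PS1 replicate 2 was the lowest of all 9. The fold against WT was 1.04 in APP/PS1xRIPK1KD (0.801 to 1.35) and 0.955 in APP/PS1 (0.735 to 1.24). Of the 50-base stretches of its GENCODE M21 transcripts, 14.9% also occurred in transcripts of other genes, mostly in AC114539.1 and otherwise in Psd. Without strand information, reads there cannot be assigned to one gene with certainty.

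**Figure D3:**
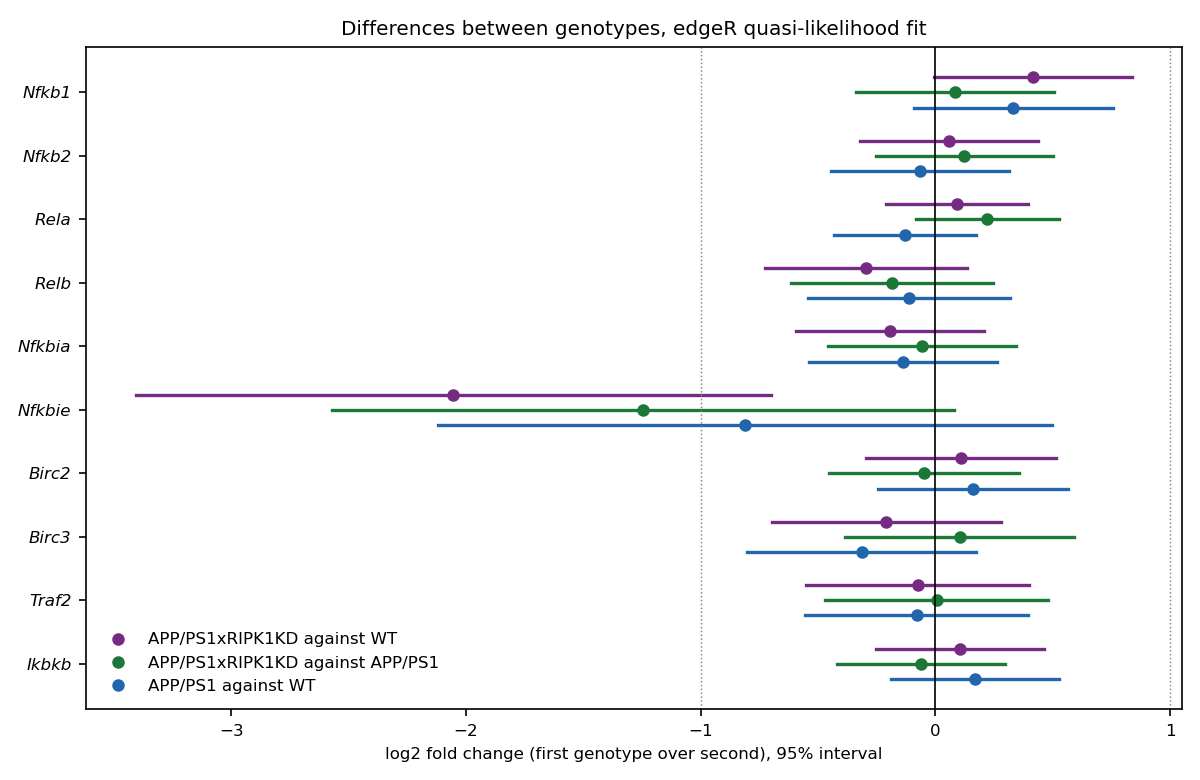
Log2 fold change with its 95% interval for each gene in the 3 comparisons, edgeR quasi-likelihood fit over 9 libraries, with dotted lines at 2-fold. All intervals but those of Nfkbie lie between the dotted lines, and only that of Nfkbie in APP/PS1xRIPK1KD against WT lies off 0.

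Birc2 encodes cIAP1, a ubiquitin ligase that acts on RIPK1 and NIK (chromosome 9, 7818227 to 7837064, minus strand). It had 48.1, 46.8 and 53.6 CPM in APP/PS1xRIPK1KD, against 49.9, 60.7 and 43.1 CPM in APP/PS1 and 46.1, 36.1 and 55.4 CPM in WT. The genotypes overlapped throughout, with WT replicate 2 the lowest library and APP/PS1 replicate 2 the highest. The fold was 1.08 in APP/PS1xRIPK1KD against WT (0.816 to 1.43), 0.967 in APP/PS1xRIPK1KD against APP/PS1 (0.731 to 1.28) and 1.12 in APP/PS1 against WT (0.844 to 1.48).

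Birc3 encodes cIAP2, the related ligase that is itself an NF-kB target (chromosome 9, 7848699 to 7873186, minus strand). It had 18.5, 22.8 and 20.9 CPM in APP/PS1xRIPK1KD, against 14.3, 23.95 and 19.5 CPM in APP/PS1 and 26.7, 23.4 and 21.8 CPM in WT. APP/PS1 replicate 1, the shallowest library, was the lowest and WT replicate 1 the highest. The fold against WT was 0.865 in APP/PS1xRIPK1KD (0.617 to 1.21) and 0.804 in APP/PS1 (0.573 to 1.13, edgeR FDR 0.895). The sign of the difference from WT was negative for both genotypes in all 18 other settings.

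Birc2 and Birc3 lie 11.6 kb apart on the same strand and share sequence, which bears on how their reads are divided. Of the 50-base stretches of Birc3 transcripts 7.56% occurred in transcripts of other genes, most often in the pseudogene Gm7019 and also in Birc2, and of those of Birc2 1.49%, most often in Birc3. The longest stretch common to both coding sequences was 114 bases, from base 1111 of the Birc2 and base 1084 of the Birc3 coding sequence in GENCODE M21 on GRCm38. It is longer than either sequencing read, of 50 and 25 bases, so a fragment inside it fits both genes.
Birc2 and Birc3, shared coding stretch: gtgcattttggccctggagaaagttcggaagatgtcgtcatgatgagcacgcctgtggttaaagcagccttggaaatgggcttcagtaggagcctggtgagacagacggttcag
The expected counts of Birc2 were not whole in 9 libraries and those of Birc3 in 8, whereas those of Nfkbie were whole in all 9. Those of Rela and Nfkbia were also not whole in 9 libraries, although 0 of their 50-base stretches occurred in transcripts of other genes. Counts that are not whole thus also occurred in genes without such stretches in GENCODE M21. The annotation the authors counted on is not given, and shared stretches of 25 bases were not searched. How the shared reads were divided was not tested.

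Traf2 encodes the adaptor that brings the cIAPs to tumour necrosis factor receptors (chromosome 2, 25517982 to 25546940, minus strand). It had 23.97, 35.03 and 33.0 CPM in APP/PS1xRIPK1KD, against 26.4, 36.6 and 28.6 CPM in APP/PS1 and 31.9, 25.8 and 39.2 CPM in WT. The spread within each genotype exceeded the difference between any 2 means. The fold was 0.950 in APP/PS1xRIPK1KD against WT (0.683 to 1.32) and 1.00 in APP/PS1xRIPK1KD against APP/PS1 (0.722 to 1.40).

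Ikbkb encodes IKK-beta, the kinase that marks IkB-alpha in the canonical pathway (chromosome 8, 22659212 to 22706589, minus strand). It had 91.0, 92.2 and 125 CPM in APP/PS1xRIPK1KD, against 108, 94.2 and 120 CPM in APP/PS1 and 107, 81.2 and 98.2 CPM in WT. WT replicate 2 was the lowest library and APP/PS1xRIPK1KD replicate 3 the highest, and the genotypes overlapped. The fold was 1.08 in APP/PS1xRIPK1KD against WT (0.839 to 1.38), 0.958 in APP/PS1xRIPK1KD against APP/PS1 (0.747 to 1.23) and 1.12 in APP/PS1 against WT (0.876 to 1.44).

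The authors' deposited table for APP/PS1 against WT, an edgeR likelihood ratio test on 12460 genes, held all 10 genes and 26 genes with an FDR under 0.05. In the authors' deposited table the log2 fold changes of the 10 genes ran from -0.86 for Nfkbie to 0.17 for Nfkb1, and the lowest FDR among them was 0.926, for Nfkbie.

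Levels can be compared between genes only per length, and on that scale the 10 genes spanned a wide range. With CPM divided by the kilobases covered by all exons of the gene, Nfkbia averaged 508 CPM per kb over the 9 libraries, above 99.7% of 12469 tested genes with a length. Rela followed at 54.5 CPM per kb, above 94.7% of them. Then came Birc2 at 10.7, Nfkb2 at 7.02, Traf2 at 6.11, Ikbkb at 5.34, Relb at 5.11, Birc3 at 4.26 and Nfkb1 at 3.57 CPM per kb, where the median tested gene had 3.96. Nfkbie was last at 1.13 CPM per kb, above 26.9% of tested genes.

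The steps from Nfkbia to Rela, from Rela to Birc2, from Birc2 to Nfkb2 and from Nfkb1 to Nfkbie held in 9 of 9 libraries. Between them the order was less regular: Nfkb2 exceeded Traf2 in 8 libraries, Relb exceeded Birc3 in 7 and Birc3 exceeded Nfkb1 in 7, while Traf2 exceeded Ikbkb in 5 and Ikbkb exceeded Relb in 5. With the longest transcript as the length only 4 of the 10 genes kept their place, namely Nfkbia, Rela, Birc3 and Nfkbie. The exons of Ikbkb cover 19078 bases in all and its longest transcript 4845, and those of Nfkb1 cover 12061 bases and its longest transcript 4149. Which transcripts these cells use was not measured. Transcripts of the inhibitor IkB-alpha stood above those of p65 in every library. The per-kb ratio of Nfkbia to Rela was 8.31, 7.88 and 8.30 in APP/PS1xRIPK1KD, against 8.57, 12.5 and 9.11 in APP/PS1 and 9.80, 12.6 and 7.55 in WT. The genotypes overlapped in this ratio, with APP/PS1xRIPK1KD the least spread.

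**Figure D4:**
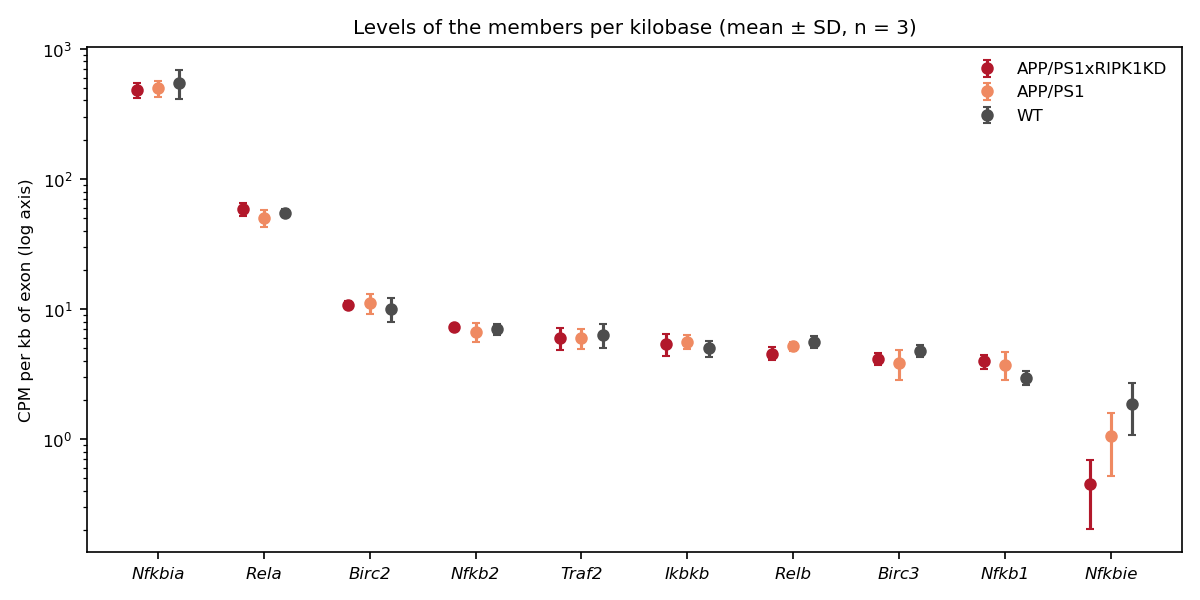
CPM per kilobase of exon for the 10 genes on a log axis, in order of their mean over 9 libraries, with the mean and SD of 3 libraries for each genotype. Nfkbia, at 508 CPM per kb on average, stands apart from the others, and Nfkb1 and Nfkbie are the genes whose SD bars for APP/PS1xRIPK1KD and WT do not meet.

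Across the 9 libraries, none of the 45 pairs of the 10 genes passed an adjusted p of 0.05 by the permutation test given below. With 9 points a pair, this cannot show that the genes vary independently. Of 45 pairs, 21 had a Pearson correlation of log2 CPM above 0, the median was -0.065 and the range was -0.59 to 0.67. In an exact permutation test of each pair the highest, Nfkb1 with Birc2, had r = 0.67 (p = 0.0442, 0.738 adjusted over 45 pairs) and Spearman's rho = 0.65 (p = 0.0666, 0.662 adjusted). Without the 2 libraries farthest from the median of Nfkb1 it was 0.69. The libraries share genotype and depth, and each pair has 9 points, so these values are descriptions.

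The genes whose pattern over the 9 libraries was most like that of a member were not members. Among 9725 other genes at 5 CPM or more, Gpx4, a lipid peroxidase, U2af1l4, a splicing factor, and Alg2, a glycosyltransferase, were closest to Nfkbia, with r of 0.951, 0.942 and 0.940. Rbfox2, an RNA-binding protein, Rdh13, a retinol dehydrogenase, and Klhdc5 were closest to Nfkb2, with r of 0.951, 0.950 and 0.937. Atp5h, a subunit of ATP synthase, Ercc3, a helicase of transcription and repair, and Gpank1 were closest to Birc3, with r of 0.967, 0.957 and 0.924. These are the highest of 9725 correlations over 9 libraries, and are given as a description.

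The other genes of the pathway were read from the same fit in lists of receptors and adaptors, kinases and ubiquitin ligases, other Rel and IkB genes, deubiquitinases and brakes, and endothelial targets. A list of 15 immediate early and dissociation-response genes, which are not pathway components, was read beside them and is included in the counts below. Of 79 genes on these lists 69 were tested, and none passed an edgeR FDR of 0.05 in any comparison. At an unadjusted p under 0.05, 0 were higher and 6 lower in APP/PS1xRIPK1KD against WT, where 2.97% of all genes were higher and 3.21% lower. In APP/PS1xRIPK1KD against APP/PS1, 1 was higher and 10 lower, where 2.44 and 2.34% of all genes were. In APP/PS1 against WT, 9 were higher and 1 lower, where 3.49 and 2.65% of all genes were. Of those 10 lower and 9 higher genes, 7 and 7 were on the immediate early list, and DESeq2 put 1 listed gene past 0.05 in each comparison with WT, as given below.

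**Figure D5:**
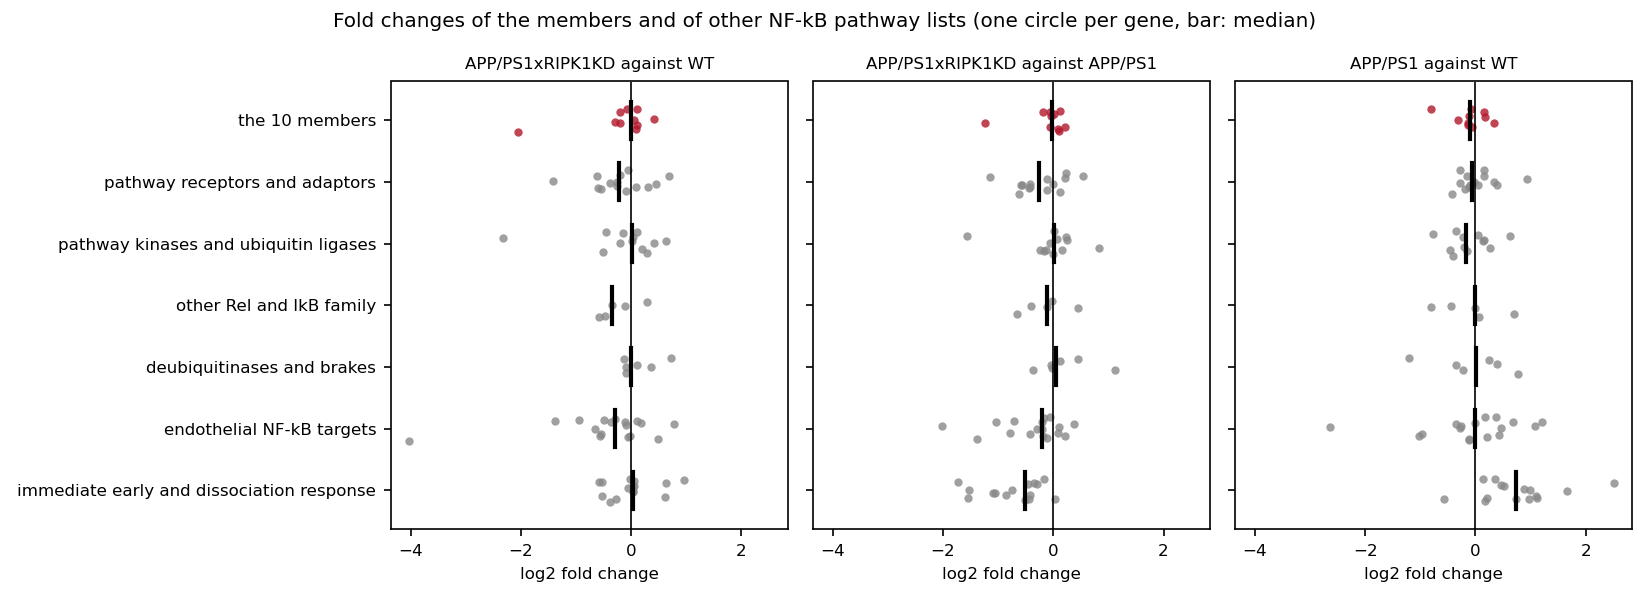
Log2 fold change of the 10 genes, of each pathway list and of the immediate early list in the 3 comparisons, with a circle per gene and a bar at the median. The medians lie within 0.4 of 0 except for the immediate early list, at -0.52 in APP/PS1xRIPK1KD against APP/PS1 and 0.73 in APP/PS1 against WT.

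Among receptors and adaptors, Il1r1, the signalling receptor for interleukin 1, had the smallest p in both comparisons of APP/PS1xRIPK1KD. It had 33.8, 42.1 and 52.7 CPM in APP/PS1xRIPK1KD, against 90.2, 127 and 65.7 CPM in APP/PS1 and 113, 65.0 and 167 CPM in WT. All 3 APP/PS1xRIPK1KD libraries lay below the 6 others. The share of all genes tested that set these libraries apart from the 6 others was not computed. The fold was 0.373 against WT (0.227 to 0.612, edgeR FDR 0.419) and 0.454 against APP/PS1 (0.277 to 0.743, edgeR FDR 0.980), and DESeq2 put the comparison with WT past 0.05. Tnfrsf1a, the main receptor for tumour necrosis factor, averaged 86.4 CPM in APP/PS1xRIPK1KD, 93.5 CPM in APP/PS1 and 126 CPM in WT. Its APP/PS1xRIPK1KD libraries all lay below WT, with a fold of 0.688 (0.518 to 0.915, edgeR FDR 0.662). Traf1, an adaptor that pairs with Traf2, had 13.0, 12.8 and 14.0 CPM in APP/PS1, all above the 8.26, 3.19 and 9.33 CPM in WT, a fold of 1.91 (1.09 to 3.33, edgeR FDR 0.795).

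Ripk1, the kinase that the RIPK1KD allele concerns, had 31.4, 44.9 and 35.5 CPM in APP/PS1xRIPK1KD, against 75.3, 52.9 and 40.9 CPM in APP/PS1 and 45.0, 48.1 and 34.95 CPM in WT. APP/PS1xRIPK1KD overlapped with both. The fold was 0.662 against APP/PS1 (0.469 to 0.936, edgeR FDR 0.980) and 0.873 against WT (0.618 to 1.23). A transcript level does not check the label of an allele whose kind is not given.

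Among kinases and ubiquitin ligases, Ikbkg, the regulatory subunit NEMO of the IkB kinase complex, had 48.2, 48.1 and 40.9 CPM in APP/PS1xRIPK1KD, against 31.4, 16.3 and 29.6 CPM in APP/PS1 and 32.3, 35.6 and 34.99 CPM in WT. The APP/PS1xRIPK1KD libraries lay above all 6 others, for which the share over all genes was not computed, and the APP/PS1 libraries below all WT libraries. The fold was 1.78 against APP/PS1 (1.27 to 2.50, edgeR FDR 0.980) and 1.33 against WT (0.952 to 1.87, edgeR FDR 0.877). Rnf31, the catalytic subunit HOIP of the linear ubiquitin ligase, averaged 37.6 CPM in APP/PS1xRIPK1KD, 42.0 CPM in APP/PS1 and 53.6 CPM in WT. Rbck1, the HOIL-1 subunit of the same ligase, averaged 154 CPM in APP/PS1xRIPK1KD, 132 CPM in APP/PS1 and 152 CPM in WT.

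Of the remaining Rel and IkB genes, Rel, encoding c-Rel, was at 2.99 to 3.51 CPM in APP/PS1xRIPK1KD, 2.74 to 6.15 CPM in APP/PS1 and 1.77 to 4.22 CPM in WT. Nfkbib, encoding IkB-beta, was at 14.4 to 23.97 CPM in APP/PS1xRIPK1KD, 15.2 to 19.99 CPM in APP/PS1 and 23.6 to 26.7 CPM in WT, so that all APP/PS1 libraries lay below WT (fold 0.732, 0.509 to 1.05, edgeR FDR 0.829). The nuclear IkB proteins Nfkbid, Nfkbiz and Bcl3 averaged 2.19, 14.1 and 10.1 CPM in APP/PS1xRIPK1KD, against 1.59, 15.3 and 16.0 CPM in APP/PS1 and 2.80, 15.3 and 15.2 CPM in WT. None of these genes had an unadjusted p under 0.05 in any comparison.

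Tnfaip3 encodes A20, a ubiquitin-editing brake on RIPK1 and IKK that is induced by NF-kB. It had 25.3, 26.2 and 16.8 CPM in APP/PS1xRIPK1KD, against 21.8, 32.0 and 16.7 CPM in APP/PS1 and 18.9, 7.28 and 14.9 CPM in WT. The fold against WT was 1.66 in APP/PS1xRIPK1KD (0.982 to 2.81, edgeR FDR 0.825) and 1.72 in APP/PS1 (1.01 to 2.90, edgeR FDR 0.796), and the libraries overlapped in both. Cyld, a deubiquitinase of the same complexes, averaged 31.1, 31.8 and 24.3 CPM in APP/PS1xRIPK1KD, APP/PS1 and WT. Tnip2, which binds A20, averaged 38.1 CPM in APP/PS1xRIPK1KD, 49.1 CPM in APP/PS1 and 41.7 CPM in WT. Spata2, which links Cyld to the linear ubiquitin ligase, averaged 18.9 CPM in APP/PS1xRIPK1KD, 13.9 CPM in APP/PS1 and 17.6 CPM in WT.

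Of 26 endothelial targets, 17 passed the filter. Ccl2 and Csf2, which encode a monocyte chemokine and a myeloid growth factor, and Il1b, which encodes interleukin 1 beta, were listed at 0 in all 9 libraries, which allows up to 0.0541 to 0.189 CPM by a floor of 3 counts per library. Il6 reached at most 0.0214 CPM and Cxcl2 0.236 CPM. Since PCR reads without molecular identifiers are not independent molecules, this floor covers counting error only. Sele, encoding E-selectin, reached 2.70 CPM in WT replicate 3, and was at most 0.063 CPM in the 8 other libraries. Icam1, the adhesion molecule for leukocyte integrins, had 55.2, 43.7 and 69.1 CPM in APP/PS1xRIPK1KD, all below the 91.0, 119 and 80.9 CPM in APP/PS1, and WT spanned both at 58.4, 40.0 and 118 CPM. The fold of Icam1 in APP/PS1xRIPK1KD against APP/PS1 was 0.578 (0.346 to 0.964, edgeR FDR 0.999). Bcl2l1, an inhibitor of apoptosis, averaged 467 CPM in APP/PS1xRIPK1KD, 537 CPM in APP/PS1 and 652 CPM in WT. Lcn2, an acute phase protein, had 1.59, 3.104 and 2.54 CPM in APP/PS1xRIPK1KD, against 3.71, 6.45 and 8.56 CPM in APP/PS1 and 4.60, 3.53 and 110 CPM in WT. WT replicate 3 alone set its WT mean. The median log2 fold change of the 17 targets was -0.28 in APP/PS1xRIPK1KD against WT, -0.20 in APP/PS1xRIPK1KD against APP/PS1 and -0.0037 in APP/PS1 against WT. WT replicate 3 was the highest WT library for 12 of the 17 targets, among them Vcam1, which had 147, 30.0 and 441 CPM in WT replicates 1 to 3. Without WT replicate 3, a setting chosen after the values had been seen, the medians were 0.037 in APP/PS1xRIPK1KD against WT, with 7 of 17 targets below 0 where all 9 libraries gave 13, and 0.62 in APP/PS1 against WT. The median in APP/PS1xRIPK1KD against APP/PS1 was then -0.20. Without WT replicate 1 the median in APP/PS1xRIPK1KD against WT was -0.17, and without APP/PS1xRIPK1KD replicate 3 that in APP/PS1xRIPK1KD against APP/PS1 was -0.33.

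Immediate early and dissociation-response genes, which are known to rise when tissue is taken apart, are given beside them, and their part in the values of the pathway genes was not tested. Of the 15, 14 were below 0 in APP/PS1xRIPK1KD against APP/PS1 and 14 above 0 in APP/PS1 against WT, where 50.6 and 50.2% of all genes were. In APP/PS1xRIPK1KD against WT, 8 of 15 were above 0, where 50.6% of all genes were, and the median of the list was 0.03. Fos had 45.3, 33.6 and 108 CPM in APP/PS1xRIPK1KD, against 255, 72.2 and 220 CPM in APP/PS1 and 34.7, 32.8 and 28.4 CPM in WT. The fold in APP/PS1 against WT was 5.71 (2.37 to 13.8, edgeR FDR 0.707), and DESeq2 put it past 0.05. Egr1 averaged 19.0, 39.7 and 18.4 CPM in APP/PS1xRIPK1KD, APP/PS1 and WT, and Junb averaged 57.8, 124 and 86.8 CPM in the same order. Ier2 and Jund had the smallest p in APP/PS1xRIPK1KD against WT, with folds of 0.770 (0.583 to 1.02) and 0.691 (0.458 to 1.04). The 10 NF-kB genes had medians of -0.02 and -0.10 in the 2 comparisons in which the immediate early list had medians of -0.52 and 0.73.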

How the data were processed

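For 9 libraries the authors deposited unscaled expected counts, 28.3% of them not whole, which were rounded. Per the submitters' processing notes, Bowtie 0.12.2, RSEM and edgeR 3.10.2 were used with mm10 (GRCm38). RSEM's version and the gene annotation are not given in the sources used here. filterByExpr (minimum count 10, minimum total 15) kept 13317 genes. An edgeR 4.0.16 quasi-likelihood model (TMM, robust, 1 coefficient per genotype) took all 9 libraries, and each of 3 contrasts was tested 2-sided with Benjamini-Hochberg adjustment. Its script was tested on simulated data. Other settings used DESeq2 1.42.0, limma 3.58.1, other scalings and filters, a replicate block and fewer libraries (R 4.3.3). Per the file headers, the authors' table for APP/PS1 against WT holds log2 values, a likelihood ratio score and p-values.

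Members and lists were chosen with earlier results of these data known. Named besides the 10 members are Ripk1, Tnfaip3, Rel and 4 other IkB genes, the 2 genes of smallest p per list and comparison at 5 CPM or more, and the 3 genes most correlated with Nfkbia, Nfkb2 and Birc3. Ccl2, Csf2, Il1b, Il6, Cxcl2 and Sele, which were not tested, were named after their values were seen. So was Vcam1, which was tested. Of 154 list and marker genes, 150 matched the matrix by symbol and 2 by an older one. GENCODE M21 on GRCm38 gave positions and lengths. Each label was read as 1 mouse, so p-values measure the spread between these libraries, with their mice and preparation.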

Additional observations from a re-analysis of the deposited data

How the results depend on the processing

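The 18 other settings gave 540 values for the 30 member results (10 genes in 3 comparisons). None passed an FDR of 0.05, the lowest being 0.118. Of the 30 results, 16 kept their direction in all settings and 14 turned in at least one, all with a reported log2 fold change of at most 0.14 in size. The count of all genes past an FDR of 0.05 was 5, 1 and 3 in APP/PS1xRIPK1KD against WT, APP/PS1xRIPK1KD against APP/PS1 and APP/PS1 against WT. It became 62, 19 and 45 with DESeq2, which also called 1 listed gene in APP/PS1xRIPK1KD against WT (Il1r1) and 1 in APP/PS1 against WT (Fos). In APP/PS1xRIPK1KD against WT it became 8 with upper-quartile scaling, 14 with no filter on low counts, 2 with limma-voom, 3 with only the 2 genotypes compared, 0 with the replicate block and 8 with replicates 1 and 2 only. In APP/PS1xRIPK1KD against APP/PS1 it became 0 with limma-voom, 0 with the replicate block and 0 with replicates 1 and 2 only, and in APP/PS1 against WT it became 7 with no filter. At an unadjusted p under 0.05 the counts with the replicate block were 730 in APP/PS1xRIPK1KD against WT and 587 in APP/PS1xRIPK1KD against APP/PS1. Leaving out each library in turn gave 2 to 9, 0 to 4 and 1 to 5 genes in the same 3 comparisons. These counts moved by over 1.5 times in APP/PS1xRIPK1KD against WT without any one of the 3 APP/PS1xRIPK1KD libraries or without WT replicates 1 or 2, in APP/PS1xRIPK1KD against APP/PS1 without any one of the 6 libraries compared, and in APP/PS1 against WT without APP/PS1 replicate 2 or WT replicate 3. The 4 of 10 genes that keep their place in the order of levels under the longest transcript are given above.

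With replicates 1 and 2 only, the log2 fold changes that turned were those of Traf2 and Ikbkb in APP/PS1xRIPK1KD against WT (0.034 and -0.040), Nfkbia and Traf2 in APP/PS1xRIPK1KD against APP/PS1 (0.0093 and -0.097), and Relb and Traf2 in APP/PS1 against WT (0.025 and 0.13). Traf2 in APP/PS1xRIPK1KD against APP/PS1 also turned with limma-voom (-0.052) and with the replicate block (-0.0017). Leaving out each library in turn, the log2 fold changes against WT in APP/PS1xRIPK1KD ran from -0.0091 to 0.13 for Nfkb2, -0.035 to 0.27 for Birc2, -0.21 to 0.090 for Traf2 and -0.052 to 0.20 for Ikbkb. In APP/PS1xRIPK1KD against APP/PS1 they ran from -0.073 to 0.29 for Nfkb1, -0.17 to 0.035 for Nfkbia, -0.16 to 0.10 for Birc2, -0.068 to 0.31 for Birc3, -0.094 to 0.17 for Traf2 and -0.22 to 0.028 for Ikbkb. In APP/PS1 against WT they ran from -0.16 to 0.059 for Nfkb2, -0.32 to 0.032 for Nfkbia and -0.24 to 0.084 for Traf2. The cause of these changes was not tested. Leaving out each library in turn, a setting added after the data had been seen, the median log2 fold change of the 17 endothelial targets ran from -0.35 to 0.037 in APP/PS1xRIPK1KD against WT, -0.33 to -0.16 in APP/PS1xRIPK1KD against APP/PS1 and -0.048 to 0.62 in APP/PS1 against WT.

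The correlations between deviations from the genotype means ran from -0.019 to 0.098 over the 9 pairs of libraries with the same replicate number, none over the 0.1 required to treat the numbers as pairs. Those of the replicate 3 libraries were all positive, at 0.039, 0.098 and 0.054, and the best correlate of a library in another genotype had its own number in 11 of 18 cases. The replicate block is given as an alternative. Depth limited Nfkbie most, at 26 counts in APP/PS1 replicate 1.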
